A study of Homo sapiens with 32 samples.

Results

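PPP1R15B, ELK4, COG8, KLHL9 and HAUS3 were 5 protein-coding genes selected on high Chtop tags in iCLIP (individual nucleotide resolution UV crosslinking and immunoprecipitation), out of 64449 annotated genes. The members were thus chosen by their Chtop tags, and every Chtop value given for them is a description without a test. Contrasts among the Alyref, Nxf1 and Control libraries were not used for the choice and were tested. The levels of these groups did enter the choice, because Chtop was set against them, so these tests are not independent of it. The filter on low counts also used every library, Chtop included.

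The libraries came from human embryonic kidney cells, given as HEK293T in the sample labels and as FlpIn-293 in the growth protocol, carrying a construct for FLAG-tagged Alyref, Chtop or Nxf1, or for the FLAG construct alone (Control). Cells were induced over 48 h, the Alyref and Chtop lines with 10 ng/mL tetracycline and the Nxf1 line with 5 ng/mL, and the Control dose is not given in the sources used here. Anti-FLAG antibody recovered the crosslinked RNA in every group, so the untagged endogenous protein was not measured, and each factor was studied in its own stable line. There were 3 replicates of each group, 12 libraries in all, and nothing in the labels says whether replicates came from separate cultures, so p-values measure the spread between these libraries, which may be technical.

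TREX couples transcription and splicing to mRNA export. Alyref and Chtop are RNA-binding adaptors of TREX that help load Nxf1, the receptor which carries mRNA through the nuclear pore, and Alyref is known to be deposited close to the exon junction complex that splicing leaves upstream of exon junctions. The 5 genes serve unrelated processes. PPP1R15B, also called CReP, is the constitutive subunit that directs protein phosphatase 1 to phosphorylated eIF2α; ELK4 is an ETS transcription factor that binds with serum response factor; COG8 is a subunit of the conserved oligomeric Golgi tethering complex; KLHL9 is a substrate adaptor of cullin 3 ubiquitin ligases in mitosis; HAUS3 is a subunit of augmin, which nucleates microtubules inside the spindle.

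The stretches of coding sequence with most Chtop tags are shown so that the crosslinked bases can be seen in place. Each is the densest window of 30 nt within a coding exon part that occurs once in the genome, written 5′ to 3′ on the gene's strand with DNA letters from the hg19 reference, with capitals at bases that carried a Chtop tag.
PPP1R15B exon 1: tTtggacCctgcagcacaggcttTTCTCTT
ELK4 exon 3: agcTTtggagacaTtgGTttccccAAaacT
COG8 exon 2: aTggacacctgTgtCcggaacagtTaTTaT
KLHL9 exon 1: cTTaagcactgTaccgaacttgaactcTTT
HAUS3 exon 3: acttTgtataccAaaaaacagttcttTcaG
These windows lie on the minus strand at chr1:204380013-204380042, chr1:205589476-205589505, chr16:69370480-69370509, chr9:21334211-21334240 and chr4:2242002-2242031. They held 12, 9, 7, 6 and 4 Chtop tags, against 3, 2, 0, 0 and 1 Alyref tags and no Nxf1 or Control tag. All Chtop tags in them came from replicates 2 and 3. The Chtop tags were spread over 9, 8, 7, 6 and 4 different bases of these windows, and 6, 5, 6, 6 and 2 of those bases were U in the RNA (T as printed). Over the whole mRNA the printed window was also the densest in ELK4, and in KLHL9 a 5′ UTR window held 6 Chtop tags as well. A denser window lay in the 5′ UTR of HAUS3, with 7 Chtop tags, and in the 3′ UTR of COG8, with 10. In PPP1R15B it was a 3′ UTR window with 13 Chtop, 5 Alyref and 3 Nxf1 tags, whose 30-mer has 154 copies in the genome.

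Library depth ranged from 7017 to 631704 tags, a tag being 1 deduplicated read assigned to 1 crosslinked base. Nxf1 replicate 1, with 8134 tags, and Control replicate 1, with 7017, were the shallowest, and 1 tag in either equals 123 or 143 RPM (tags per 1000000 library tags). As a check of the labels, CHTOP RNA had a mean of 223 ± 85.1 RPM in Chtop, 86.7 ± 33.3 in Alyref and 196 ± 161 in Nxf1 libraries (SD, n = 3). NXF1 RNA had 210 ± 106 RPM in Nxf1, 119 ± 27.4 in Alyref, 63.6 ± 27.5 in Chtop and 109 ± 154 in Control libraries. The highest Control library, at 285 RPM from 2 tags, lay within the Nxf1 range. ALYREF RNA had 21.5 ± 20.6 RPM in Alyref libraries and more, 35.4 ± 43.5, in Nxf1 libraries. Each of these groups included a library at 0, and ALYREF does not serve as a check. VIM, KRT8 and PAX2 carried 227, 74 and 50 tags over all libraries, KRT18 had 18 and NEFM 1, whereas markers of blood, liver, muscle and glia (PTPRC, CD3E, ALB, APOA1, DES, MYH7 and GFAP) had 0 to 3 and COL1A1 had 47. RNA abundance was not measured here, so a tag level reflects the amount of a transcript as well as its crosslinking. Fewer cells and less RNA per cell cannot be told apart in these bulk libraries. Ratios between factors on the same gene compare different stable lines, in which the amount of the transcript may differ.

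PPP1R15B had the most Chtop tags of the members. It carried 9, 182 and 209 tags in Chtop replicates 1 to 3, equal to 191, 338 and 487 RPM, and 4, 76 and 65 tags in Alyref, equal to 49.2, 120 and 108 RPM. Nxf1 gave 4, 15 and 19 tags, equal to 492, 126 and 106 RPM, and no Control library had a tag. The Chtop libraries all lay above the Alyref libraries, while the Nxf1 range overlapped theirs through Nxf1 replicate 1 and its 4 tags. With the tags of each group pooled, the Chtop level was 3.58 times the Alyref level (exact 95% interval 2.95 to 4.35) and 3.18 times the Nxf1 level (2.28 to 4.56). The pooled Chtop level was at least 11.9-fold higher than Control, taking 3 tags over the Control group as the floor, or 33.1 RPM. Such intervals and floors cover counting error only.

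ELK4 had 8, 80 and 106 tags in Chtop, equal to 170, 148 and 247 RPM. Alyref gave 4, 61 and 45 tags, or 49.2, 96.6 and 74.6 RPM. Nxf1 gave 2, 11 and 6 tags, or 246, 92.3 and 33.5 RPM, and Control again 0. As for PPP1R15B, Chtop and Alyref libraries did not overlap and the 2 tags of Nxf1 replicate 1 brought its range into that of Chtop. Pooled, Chtop exceeded Alyref 2.29-fold (1.80 to 2.92) and Nxf1 3.08-fold (1.92 to 5.23), and was at least 5.77-fold higher than Control.

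COG8 had 8, 115 and 130 Chtop tags, or 170, 213 and 303 RPM, and 3, 72 and 55 Alyref tags, or 36.9, 114 and 91.2 RPM. It was the only member whose Nxf1 libraries all lay below the Chtop libraries, with 0, 9 and 8 tags, or 0, 75.5 and 44.6 RPM. All Control libraries were at 0. Pooled, Chtop exceeded Alyref 2.52-fold (2.03 to 3.14) and Nxf1 4.49-fold (2.75 to 7.84), and was at least 7.53-fold higher than Control.

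KLHL9 was sparser, with 3, 66 and 71 Chtop tags, equal to 63.8, 122 and 165 RPM. Its Alyref counts were 2, 20 and 17, the narrowest range of any member at 24.6, 31.7 and 28.2 RPM. Nxf1 had 1, 3 and 1 tags and Control 1, 0 and 0. Despite this, KLHL9 had the largest pooled Chtop to Alyref ratio of the 5 genes, 4.65 (3.24 to 6.82), and the largest fitted difference of all 3884 genes tested, a log2 fold change of 2.28 ± 0.46 (SE). Against Nxf1 the pooled ratio was 8.46 (3.54 to 26.4), and against the 1 Control tag it was 12.5 with an interval of 2.21 to 497.

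HAUS3 had 6, 49 and 62 Chtop tags, or 128, 90.9 and 144 RPM, and 3, 32 and 29 Alyref tags, or 36.9, 50.7 and 48.1 RPM. Nxf1 gave 1, 0 and 3 tags. It was the only member with more than 1 Control tag, at 2, 3 and 0, so that the pooled Chtop level was 2.09 times that of Control with an interval of 0.87 to 6.55. Its excess over Control was thus not separable from counting error, although it exceeded Alyref 2.37-fold (1.73 to 3.27) and Nxf1 8.83-fold (3.36 to 33.0) when tags were pooled.

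**Figure D1:**
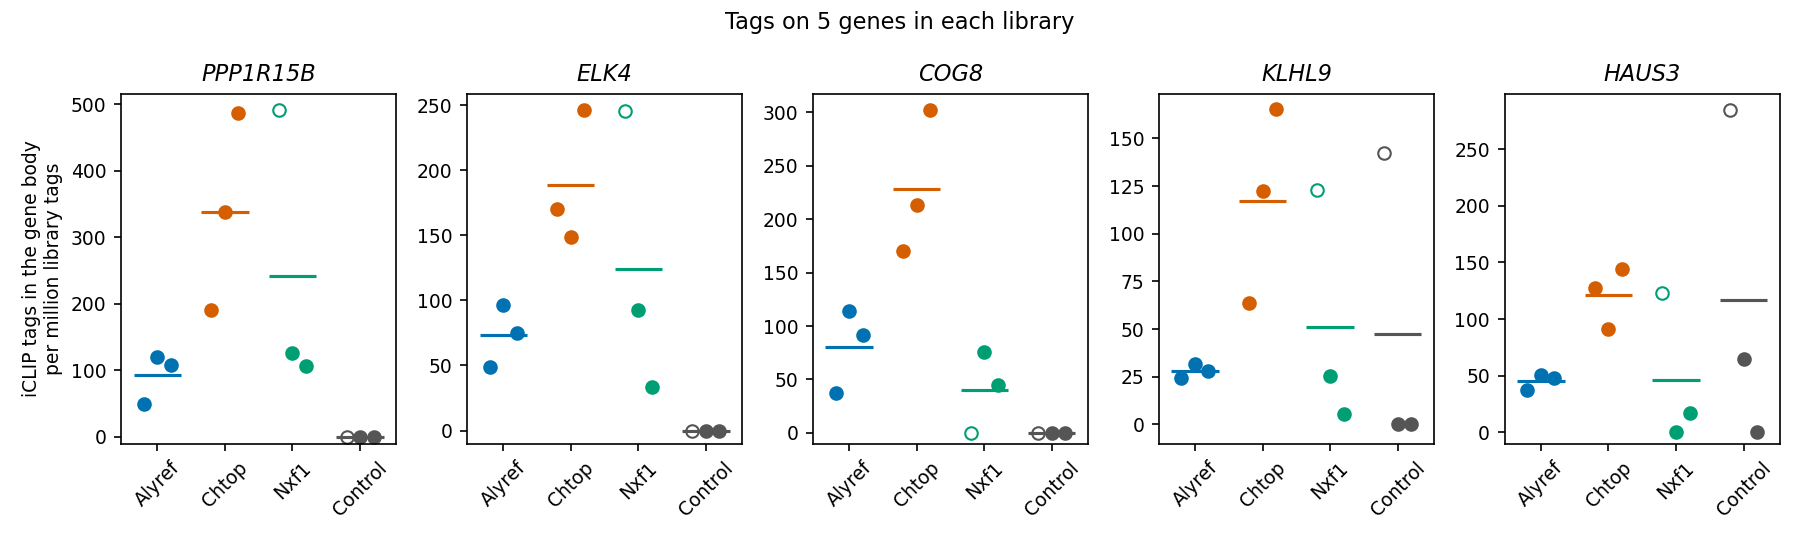
Tags in the body of each gene in RPM (vertical axis) in the 3 libraries of each group, with a bar at the group mean and open symbols for the 2 libraries under 10000 tags. Chtop points lie above every Alyref point in all 5 panels, and the high Nxf1 and Control points are open symbols that stand for 1 to 4 tags.

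In the edgeR fit across 3884 genes, the log2 fold changes of Chtop over Alyref were 2.28 ± 0.46 (SE) for KLHL9, 1.96 ± 0.32 for PPP1R15B, 1.51 ± 0.30 for COG8, 1.43 ± 0.45 for HAUS3 and 1.38 ± 0.31 for ELK4. They ranked 1, 17, 76, 103 and 118 among all genes tested, and 8.78% of genes tested were called higher in Chtop, a share from which nothing is read here because these values chose the members. Over Nxf1 the log2 fold changes were 2.95 for HAUS3, 2.76 for KLHL9, 1.97 for COG8, 1.43 for ELK4 and 1.36 for PPP1R15B, with 14.2% of genes called higher in Chtop and 9.04% lower. When only exonic tags were counted, the log2 difference from Nxf1 was 0.31 for PPP1R15B, 0.38 for ELK4 and 1.79 for HAUS3, and that from Alyref was 1.60, 1.01 and 1.12. Over the 1310 genes in both fits the median gene moved by -0.55 against Nxf1 and -0.24 against Alyref, so part of each shift is common to all genes. COG8 and KLHL9 did not pass the filter of the exonic fit.

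Whether the members differed among the other groups was tested without the Chtop contrast. Between Alyref and Nxf1, 3.89% of genes passed an adjusted p of 0.05 in edgeR's quasi-likelihood test, and none of the 5 members did. None of them had an unadjusted p under 0.05 either, as 756 of all genes did. PPP1R15B had a log2 fold change of -0.60 ± 0.41 (SE, edgeR adjusted p = 0.434), ELK4 of 0.05 ± 0.46 (0.971), COG8 of 0.46 ± 0.46 (0.640), KLHL9 of 0.49 ± 0.81 (0.787) and HAUS3 of 1.51 ± 0.83 (0.312). Counting exonic tags alone gave PPP1R15B -1.29 with an adjusted p of 0.0162 in edgeR, lower in Alyref than in Nxf1. Its own tags hardly changed in that setting, at 133 of 145 in Alyref and 36 of 38 in Nxf1, while the median gene moved by -0.36. The DESeq2 test called 23 genes between these groups and none of the members. With the replicate number as a block, which follows the sequencing runs only in part, edgeR called 246 genes in place of 151 and again none of the members.

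Against Control, Alyref levels of PPP1R15B, ELK4 and COG8 were at least 3.33-fold, 2.52-fold and 2.98-fold higher when tags were pooled. Low Control levels entered the choice of the members, because Chtop was set against them. The fold values and tests against Control given here are therefore not independent of the choice. No gene passed the threshold for Alyref against Control in edgeR (0%, with 621 genes at an unadjusted p under 0.05, and 7 calls by DESeq2), and the edgeR adjusted p was 0.106 for PPP1R15B, 0.136 for ELK4, 0.117 for COG8, 0.721 for KLHL9 and 0.875 for HAUS3. Without Alyref replicate 1 the adjusted p fell to 0.0258 for PPP1R15B and 0.0340 for COG8 in edgeR, and without Chtop replicate 1 it was 0.0427 for PPP1R15B. With the replicate block edgeR called 78 genes, PPP1R15B among them (adjusted p = 0.0423) and no other member. For Nxf1 against Control the same count was 0 (0%, with 275 genes at an unadjusted p under 0.05, 1 call by DESeq2 and 2 with the replicate block). Whether the edgeR fit could find differences in this contrast was not tested, so nothing is read from its count of 0. Pooled Nxf1 levels were at least 3.74-fold, 1.87-fold and 1.67-fold higher for PPP1R15B, ELK4 and COG8. When genes were split into regions, 14.9% of 2327 regions differed between Alyref and Control. Among the regions of the members only the PPP1R15B coding sequence passed the filter on low counts (edgeR adjusted p = 0.112). It did not pass when either deep Chtop library was left out, and in the gene fit KLHL9 did not pass without Chtop replicate 3. These tests thus rest on Chtop tags through the filter and are not independent of the choice.

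The members shared a feature of structure that the choice had not used directly, a long coding exon. In other genes the ratio of Chtop to Alyref tags rose with the length of coding parts (below). A choice on Chtop tags was therefore not independent of this feature, and the limit of 800 nt was set with earlier results known. All 5 genes lie on the minus strand. PPP1R15B (chr1:204365620-204381015) has 2 exons, and 1920 nt of its coding sequence of 2139 nt sit in exon 1. KLHL9 (chr9:21329664-21335403) has no intron, so its whole coding sequence of 1851 nt is in 1 exon. The longest coding exon parts were 909 nt in HAUS3 (chr4:2229191-2243860, 6 exons), 873 nt in ELK4 (chr1:205566684-205601139, 5 exons) and 828 nt in COG8 (chr16:69354043-69373486, 6 exons). The median longest part over 19881 protein-coding genes was 308 nt, and 21.6% of genes had a part of 800 nt or more. The 3′ UTRs were 8606 nt in ELK4, 3581 nt in HAUS3, 3344 nt in KLHL9, 2781 nt in COG8 and 2714 nt in PPP1R15B, beside a median of 1025 nt over protein-coding genes.

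Chtop tags covered the coding sequence of these genes densely. In PPP1R15B the coding sequence held 192 of 383 Chtop tags in the canonical transcript (50.1%, Wilson 95% interval 45.1 to 55.1) and 44 of 122 Alyref tags (36.1%, 28.1 to 44.9). Per length this was 88.4 Chtop and 15.6 Alyref RPM per kb, whereas the 3′ UTR held 48.6 and 15.96. Chtop thus stood 5.66 times above Alyref over the coding sequence and 3.05 times over the 3′ UTR. Its 5′ UTR had the highest Chtop density of the gene, 114 RPM per kb, from 47 tags over 406 nt.

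ELK4 carried 74 Chtop tags in a coding sequence of 1293 nt and 98 in a 3′ UTR of 8606 nt. The coding density was 56.4 RPM per kb for Chtop and 12.9 for Alyref, against 11.2 and 6.27 in the 3′ UTR. Exon 3, which holds 873 coding nt, had 57 of the 74 coding tags. Within the 3′ UTR, 22 of 98 Chtop tags (22.4%) fell in the last 1000 nt, which make up 11.6% of its length, against 8 of 71 Alyref tags (11.3%).

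In HAUS3 the coding sequence held 60 of 111 Chtop tags (54.1%, 44.8 to 63.0) and the 3′ UTR 25 (22.5%, 15.7 to 31.1). Alyref had 25 and 27 tags in the same regions. Chtop therefore stood 3.11 times above Alyref over the coding sequence (1.92 to 5.18) and 1.20 times over the 3′ UTR, an interval of 0.668 to 2.15 that spans equality. In COG8 the ratio of Chtop to Alyref was 3.73 over the coding sequence (2.34 to 6.14) and 1.96 over the 3′ UTR (1.27 to 3.06).

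KLHL9 was the exception among the 5 in that its ratio was no higher in the coding sequence (4.38) than in the 3′ UTR (4.59). In its 5′ UTR the ratio was 5.96. The excess of Chtop was thus found in all 3 regions of this intronless mRNA, though not along their whole length. PPP1R15B also had an excess in all 3, with a 5′ UTR ratio of 4.35 (2.36 to 8.56). Of 46 Chtop tags in its 3′ UTR, 1 lay in the last 1000 nt, which form 29.9% of its length, and Alyref had none there.

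**Figure D2:**
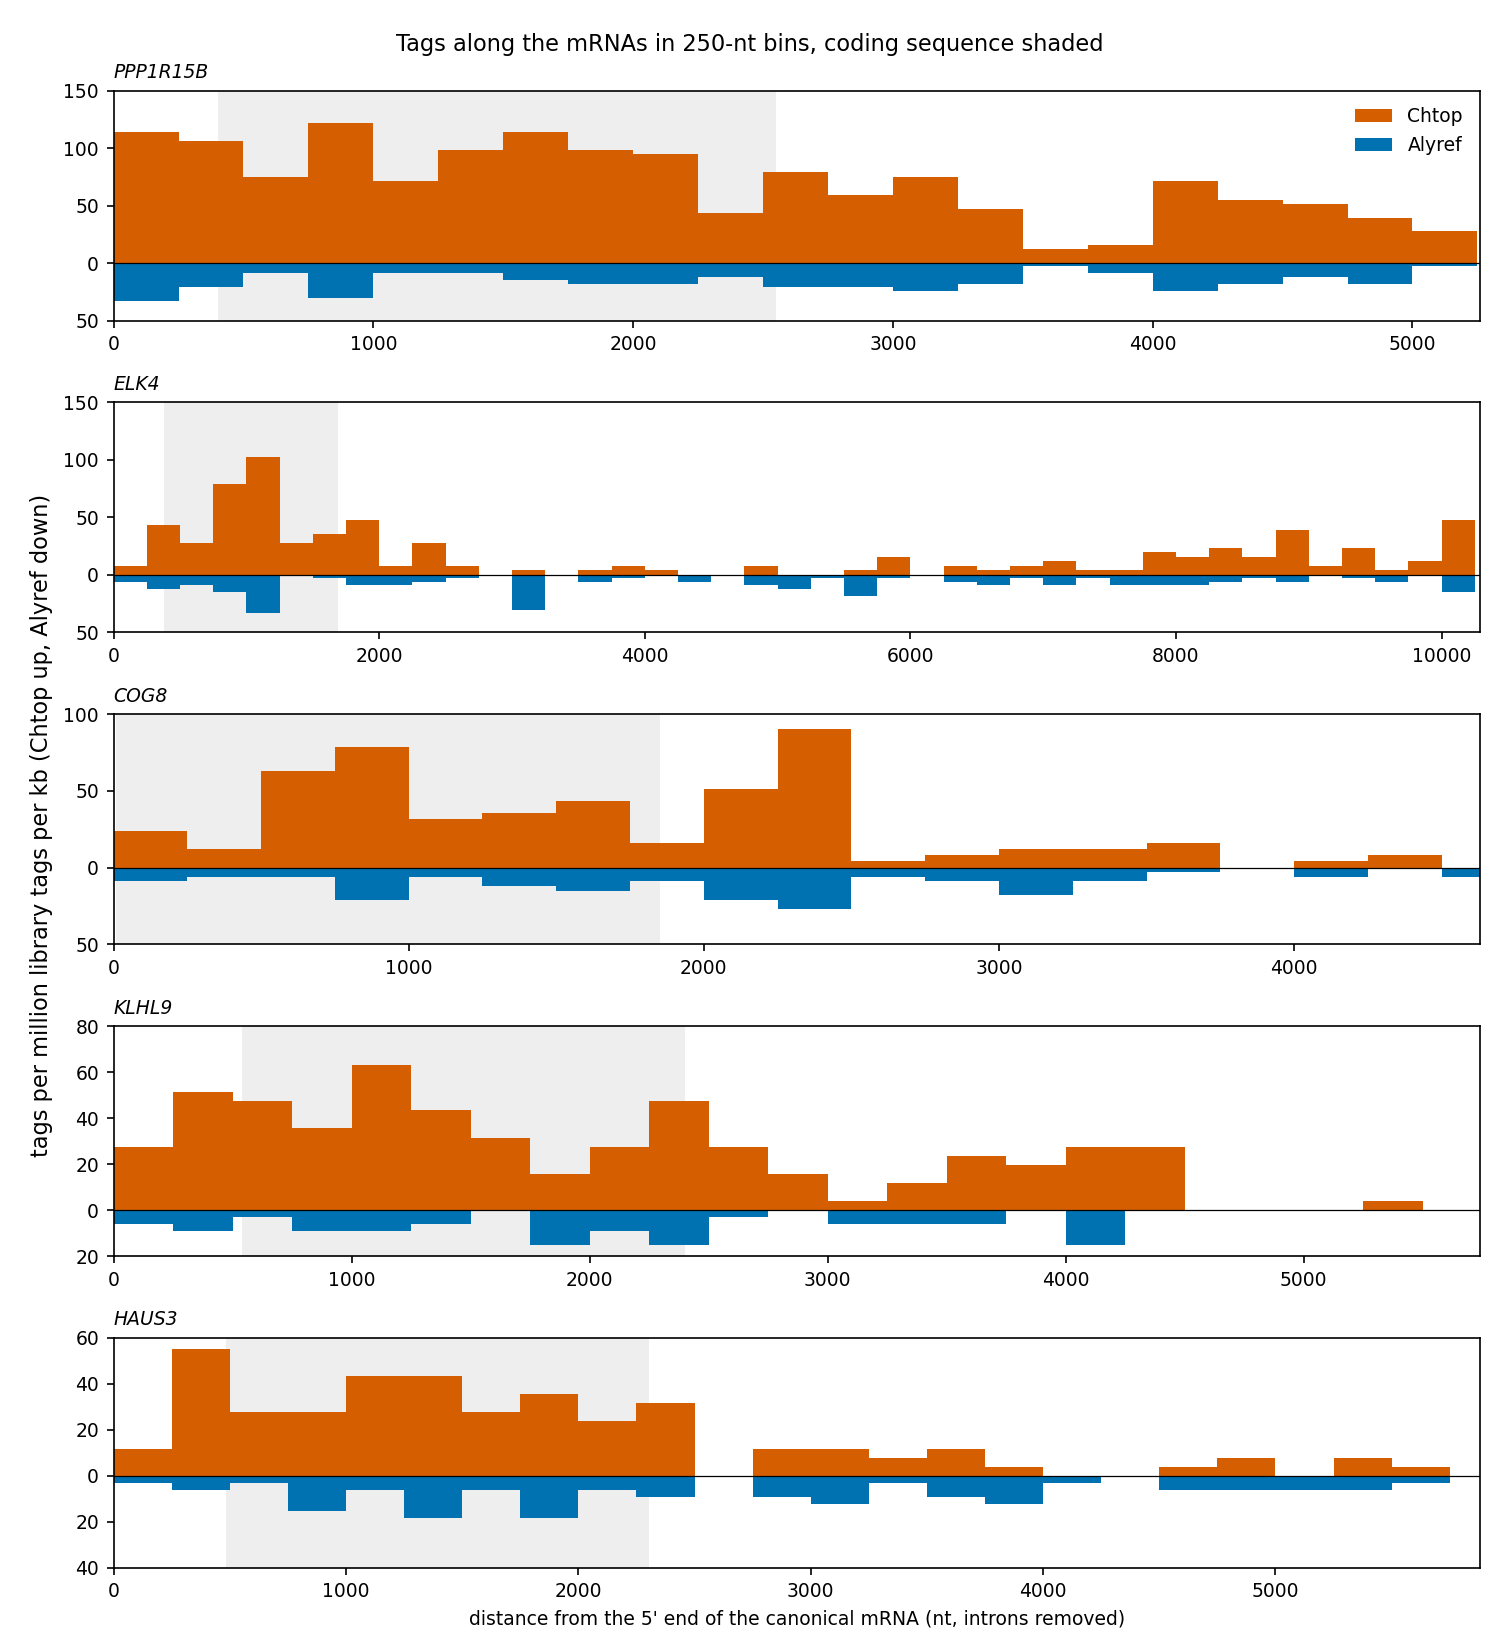
RPM per kb in 250-nt bins along the canonical mRNA of each gene (horizontal axis, nt from the 5′ end, introns removed), pooled over 3 libraries, with Chtop upward, Alyref downward and the coding sequence shaded. Chtop bars are highest over or next to the shaded coding sequence in PPP1R15B, ELK4, KLHL9 and HAUS3, while the tallest COG8 bin lies in the 3′ UTR.

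Summed over the members, the order of Chtop and Alyref in the coding share was opposite to that in other genes, a description that was not tested. Over all other protein-coding genes, the coding share of coding and 3′ UTR tags was 67.7% to 70.3% in the 3 Alyref libraries and 49.9% to 53.5% in the 3 Chtop libraries, lower in Chtop. Summed over the 5 genes, it was 56.6% in Chtop (469 of 828 tags) and 40.1% in Alyref (137 of 342 tags), higher in Chtop, although the coding sequence makes up 29.8% of that length. By library it was 50%, 55.6% and 57.8% in Chtop and 72.7%, 40.6% and 36.7% in Alyref, the highest resting on 11 tags of Alyref replicate 1. By gene the pooled share was higher in Chtop in PPP1R15B (58.9% against 43.6%), ELK4 (43.0% against 23.7%), COG8 (56.3% against 40.3%) and HAUS3 (70.6% against 48.1%), and close in KLHL9 (60.7% against 61.8%). The difference of 16.6 percentage points was 14.3 to 17.7 when a Chtop or Alyref library was left out. Nxf1 had 26 of 56 tags in the coding sequence (46.4%, 34.0 to 59.3), an interval that includes the Chtop and the Alyref share.

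**Figure D3:**
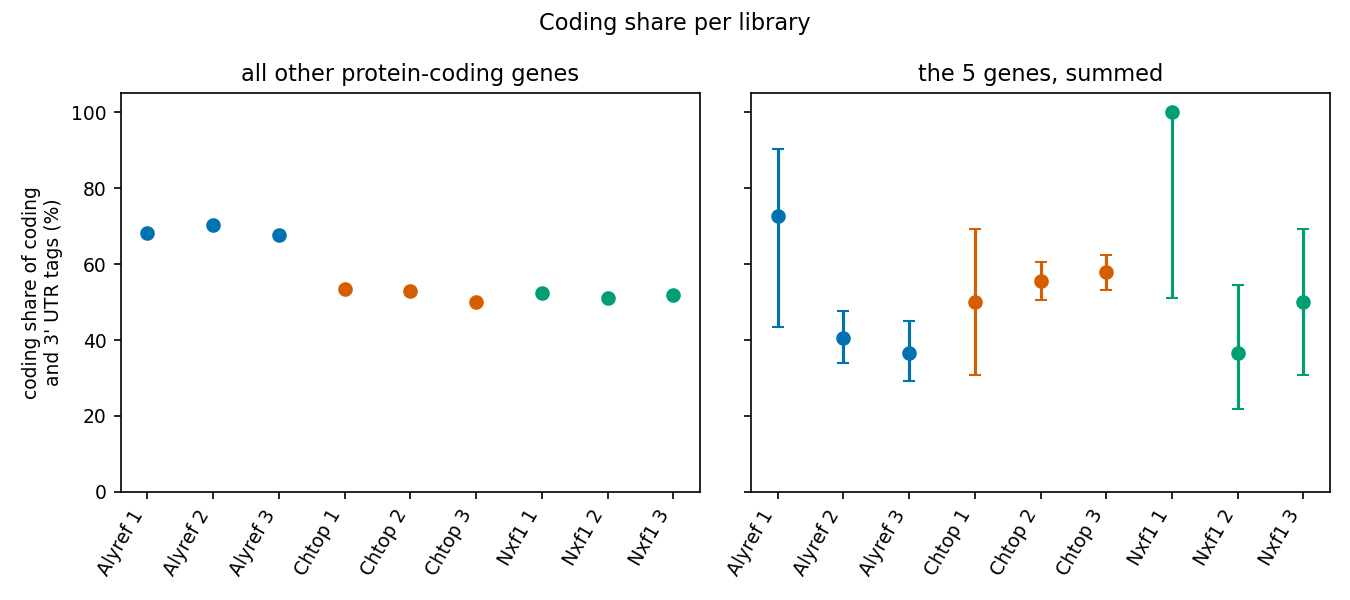
Percent of coding and 3′ UTR tags that lay in the coding sequence, per library, for all other protein-coding genes (left) and for the sum of the 5 genes (right, bars are Wilson 95% intervals). Alyref lies above Chtop at left (67.7% to 70.3% against 49.9% to 53.5%), while at right the deep Alyref libraries (40.6% and 36.7%) lie below the deep Chtop libraries (55.6% and 57.8%).

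The relation between coding exon length and the balance of the factors was next examined in all other genes. The ratio of Chtop to Alyref RPM was 0.676 in coding exon parts under 200 nt, 1.29 in parts from 200 nt, 2.16 in parts from 500 nt and 2.98 in 4602 parts of 800 nt or more. Parts of 800 nt or more held 21.8%, 24.9% and 26.7% of the coding tags in the Chtop libraries and 8.97%, 8.67% and 8.97% in the Alyref libraries, against 20.7% of the coding length, and these ranges did not overlap. Nxf1 replicates 2 and 3 had 12.8% and 13.5%, whereas Nxf1 replicate 1 had 24.9%, within the Chtop range. Of 844 tested genes with a coding exon part of 800 nt or more, members left out, 22.4% were called higher in Chtop than in Alyref and 0.948% lower. Of 729 genes whose longest part was under 200 nt, 3.16% were higher and 11.4% lower, against 8.78% higher and 4.69% lower over all genes tested. These shares are of the main edgeR fit alone, which made 523 calls. DESeq2 made 74, and edgeR made 8 to 850 when 1 library was left out.

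In the members, the 5 coding parts of 800 nt or more carried 389 Chtop and 107 Alyref tags, a ratio of 4.71 (3.80 to 5.89) beside 2.98 in other genes. Between libraries of the same number the ratio was 1.73, 3.31 and 7.56. That spread included 2.98, the pooled ratio of other genes, which is not split by library here. Pooled, the ratio was 5.55 in exon 1 of PPP1R15B, 4.38 in KLHL9, 4.24 in exon 3 of HAUS3, 4.10 in exon 3 of ELK4 and 3.80 in exon 3 of COG8. The excess was not restricted to long coding parts. The 5′ UTRs gave 95 Chtop and 26 Alyref tags and a ratio of 4.74 (3.04 to 7.62), and the 3′ UTRs a ratio of 2.27 (1.91 to 2.71). The 11 coding parts under 800 nt gave 80 and 30 tags and a ratio of 3.46 (2.25 to 5.45). The 3 parts under 200 nt gave 19 and 4 tags and a ratio of 6.16 (2.05 to 24.9). A short coding part is not always a short exon. ELK4 exon 5 (96 coding of 8702 nt) gave 8 and 1 of these tags. PPP1R15B exon 2 (219 of 2933 nt) gave 8 and 1, and HAUS3 exon 6 (231 of 3812 nt) 5 and 2. The tags behind these ratios are among those from which the members were picked, so the ratios of the members are not evidence on exon length.

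**Figure D4:**
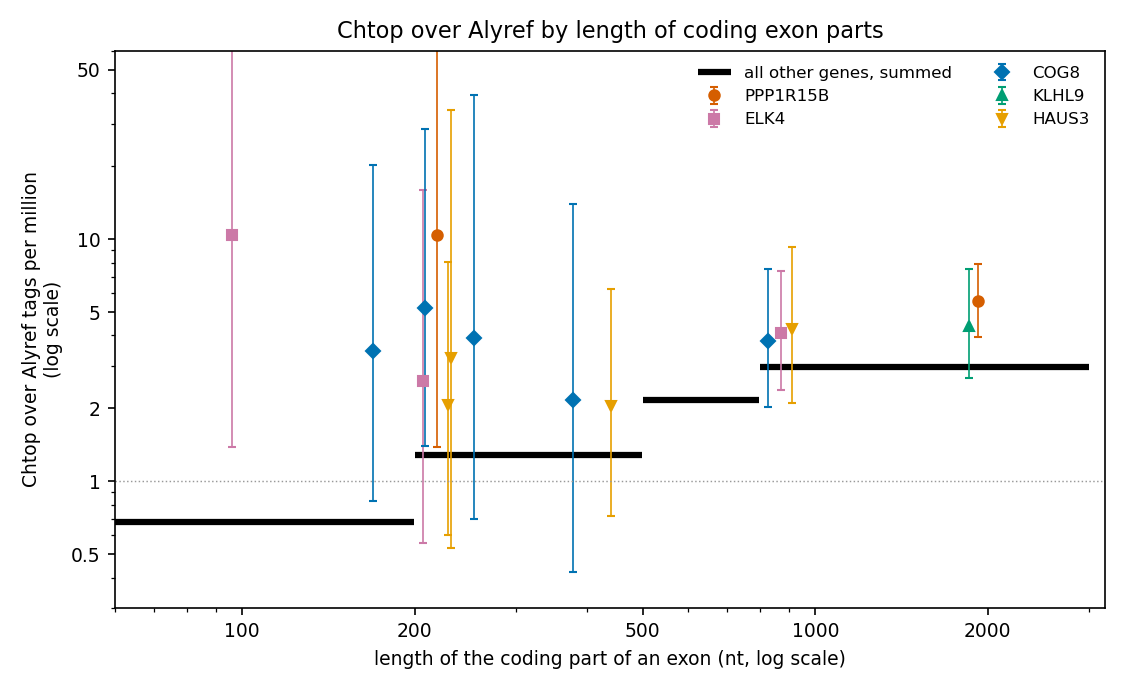
Ratio of Chtop to Alyref RPM (vertical, log scale) against the length of the coding part of an exon (horizontal, log scale) for parts of the 5 genes with an Alyref tag (points, exact 95% intervals, 2 of which run past the upper edge), beside the same ratio summed over all other genes in 4 length classes (black lines, the longest class drawn to 3000 nt). The black line rises from 0.676 to 2.98, and the 5 longest parts of the members lie between 3.80 and 5.55.

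Tags close to exon junctions were counted in the 4 members with introns. PPP1R15B has 1 junction, and 9 of 373 exonic Chtop tags (2.41%) and 4 of 115 Alyref tags (3.48%) lay within 100 nt of it, beside 3.80% of the mRNA length. HAUS3, with 5 junctions, had 29.7% of Chtop and 30.9% of Alyref exonic tags within 100 nt of a junction, beside 16.5% of its length. In ELK4 these shares were 13.9% for Chtop (25 of 180 tags) and 6.19% for Alyref (6 of 97), beside 6.97% of the length, and in COG8 they were 25.6% (33 of 129) and 17.7% (11 of 62), beside 20.9%. Introns held 2.61% of Chtop tags in PPP1R15B, 5.76% in ELK4, 9.01% in HAUS3 and 16.8% in COG8.

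Tags on COG8 and HAUS3 can belong to overlapping genes. The COG8 3′ UTR overlaps exons of PDF, the mitochondrial peptide deformylase, on the same strand over 2267 nt, and 54 of its 56 Chtop tags and 36 of 37 Alyref tags lay there. Its body also runs 6288 nt past the canonical end, opposite VPS4A, where 97 Chtop, 49 Alyref and 8 Nxf1 tags were found, 49 of the Chtop tags in exons of other COG8 transcripts. The opposite strand of the COG8 body carried 36 Chtop and 35 Alyref tags, more than in any other member. Unnamed genes on the same strand share parts of its coding exons, the largest overlap covering 466 nt with 28 Chtop and 6 Alyref tags. With tags in more than 1 gene left out, COG8 kept 5, 51 and 55 Chtop tags and 3, 30 and 23 Alyref tags, too few for the fit.

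HAUS3 lies inside the body of an unnamed gene on the same strand and, but for its 5′ end, inside that of POLN, a DNA polymerase, so no HAUS3 tag remained when shared tags were left out. Exons of the unnamed gene cover 1578 nt of the HAUS3 coding sequence, with 55 of its 60 Chtop and 23 of its 25 Alyref tags. The 155546 nt of POLN outside HAUS3 held 52 Chtop and 47 Alyref tags, beside 117 and 64 in the 14670 nt of HAUS3, and POLN's own exons there held 13 and 10. POLN exons shared with HAUS3 cover 342 nt of its 5′ UTR and 145 nt of its 3′ UTR, with 7 and 0 Chtop tags.

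The crosslinked base was most often U, with intervals that overlapped between the factors. U was the crosslinked base of 61.0% of Chtop tags (58.0 to 63.8, 1104 tags), 61.7% of Alyref tags (57.3 to 65.9, 488 tags) and 59.0% of Nxf1 tags (49 of 83 tags) on the 5 genes, beside 55.2%, 54.6% and 52.8% of all tags in those groups. By gene the Chtop share ran from 53.0% in COG8, whose mRNA is 23.1% U, to 68.4% in HAUS3, which is 31.6% U. Tags rarely fell on the same base. PPP1R15B had 373 bases with a Chtop tag, of which 20 were hit in 2 or more Chtop libraries and none had more than 3 tags, and KLHL9 had 139 such bases and none hit in more than 1 library. Bases hit by Chtop and by Alyref made up 9.38% of the Chtop bases and 25% of the Alyref bases in PPP1R15B and 1.44% and 5.13% in KLHL9.

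The 3′ UTR share of exonic tags (coding, 5′ UTR and 3′ UTR) in the 5 genes was compared between Alyref and Nxf1, a contrast that the choice did not use. It was 25%, 56.2% and 57.5% in Alyref and 0%, 59.4% and 44% in Nxf1, the lowest of each being replicate 1 with 12 and 8 exonic tags. The means were 46.2% ± 18.4 and 34.5% ± 30.8 (SD, n = 3), a difference of 11.8 percentage points with a two-sided exact permutation p of 0.7, where 0.1 is the smallest that 3 against 3 can give. Without Nxf1 replicate 1 the difference was -5.46 points. The Chtop libraries gave 47.8%, 39.6% and 37.9%.

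Few partners of the members had enough tags to compare. Of 39 listed genes of the same pathways 9 were tested, of which 1 was higher in Chtop than in Alyref in edgeR and 2 were lower, where 8.78% and 4.69% of all genes were called, with a median log2 fold change of -0.61 beside -0.03 over all genes. Against Control 1 was higher and 1 lower, where 8.68% and 4.74% of all genes were called, and against Nxf1 1 was higher, where 14.2% were. With 9 genes tested, these counts do not set the partners apart from all genes. KLHL21, like KLHL9 an adaptor of cullin 3 ligases in mitosis, was the gene that rose. It had 7, 60 and 72 tags in Chtop, 4, 48 and 33 in Alyref, 1, 6 and 7 in Nxf1 and 0, 1 and 0 in Control, with log2 fold changes over Alyref, Nxf1 and Control of 1.27 ± 0.33, 1.42 ± 0.46 and 3.59 ± 0.97 (SE, edgeR adjusted p = 0.0116, 0.0269 and 0.0182). Its longest coding exon part has 1021 nt. DESeq2 gave adjusted p-values of 0.125, 0.135 and 0.0732 for the same contrasts, past the threshold in none, and the call against Alyref was lost without Alyref replicate 2 or 3 (edgeR adjusted p = 0.167 and 0.234). The call against Nxf1 was lost without Alyref replicate 2 or 3 (0.0860 and 0.0629) or Nxf1 replicate 2 or 3 (0.105 and 0.220), and that against Control without Control replicate 2 or 3 (0.0566 and 0.0946).

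COG5, another subunit of the COG complex, fell in Chtop by 1.23 on the log2 scale relative to Alyref (SE 0.29, edgeR adjusted p = 0.00559) and by 1.28 relative to Control (SE 0.42, adjusted p = 0.0422), and its longest coding part has 238 nt. The call against Control was lost in most alternatives (adjusted p up to 0.753 in edgeR), the replicate block included (0.0550). The call against Alyref was lost without Alyref replicate 2 or 3 (edgeR adjusted p = 0.0669 and 0.0829) and with no filter on low counts (0.108). AURKB, the mitotic kinase that KLHL9 ligases modify, fell by 1.07 relative to Alyref (SE 0.35, edgeR adjusted p = 0.0415), a call that DESeq2 did not make (0.228) and that was lost with the replicate block (0.0660) and with no filter (0.249). MRTFA and MRTFB, coactivators of serum response factor with coding parts of 1011 and 1035 nt, had log2 fold changes of -0.62 and -0.17 over Alyref that did not pass (edgeR adjusted p = 0.227 and 0.738).

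The genes whose profile over the 12 libraries was most like the mean profile of the members, by Pearson's r of log2 CPM among 3174 genes with at least 200 tags, were HMGXB3 (r = 0.954), KMT2D (0.953), ZNF850 (0.946), NCBP3 (0.940), ZNF146 (0.924), TRAPPC10 (0.924), CPSF7 (0.920) and ZKSCAN1 (0.917). These correlations are descriptions, in which the 12 points share group and depth. Coding parts of 800 nt or more were found in 4 of the 8, namely KMT2D, ZNF850, ZNF146 and ZKSCAN1. This stands beside 21.6% of all protein-coding genes and 844 of the 3565 tested ones, members left out. The 8 were ranked by likeness to genes chosen on Chtop tags, so nothing is read from this count. The log2 fold changes of Chtop over Alyref in the 8 ran from 0.16 in TRAPPC10 and 0.27 in CPSF7 to 1.55 in ZKSCAN1. A profile like that of the members thus did not always come with a marked preference for Chtop over Alyref. The members themselves correlated with each other between 0.20 and 0.98, and HAUS3 was least like the mean of the 5 (r = 0.525).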

How the data were processed

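iCLIP was performed by the authors in stable FlpIn lines (HEK293T per the labels, FlpIn-293 per the growth protocol), 3 replicates per group. Per the labels and the study's methods, the authors removed phiX reads with Bowtie 1.1.2, extracted molecular identifiers with UMI-tools 0.5.3, mapped uniquely matching reads to hg19 with STAR 2.4.2a, merged 32 lane runs into 12 libraries and removed duplicates. The deposited values are tag counts per crosslinked base, not normalized. Unique mapping removes tags from repeats: 86.2% to 97.2% of 30-mers in the members' exons occur once in the genome. The authors' files that pool replicates were not used.

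Tags on the gene strand within gene bodies of GENCODE v44lift37 were counted, a tag in overlapping genes counting for each, and regions followed the canonical transcript. Levels are RPM (tags per 1000000 library tags). Counts of all 12 libraries entered 1 edgeR 4.0.16 quasi-likelihood fit (R 4.3.3, TMM, filterByExpr, Benjamini-Hochberg adjusted p under 0.05), tested on simulated data. Of 4-fold changes, 66.0% were recovered for Alyref against Control, 92.5% for Alyref against Nxf1 and 99.5% for Chtop against Alyref. Recovery for Nxf1 against Control was not tested. DESeq2 1.42.0 was the alternative tool. Sample titles give libraries of the same number the same set of sequencing runs. Numbers 1 and 3 share their HiSeq runs and numbers 1 and 2 their MiSeq run, so the number follows the runs only in part. Its block is given where it changes a call. Deviations of same-numbered libraries correlated at -0.168 to 0.252 over 18 pairs. Others were library size scaling, no filter, other counting of tags, a replicate block and leaving out each library. Single ratios have exact conditional intervals and shares Wilson intervals (95%).

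The members, the partner lists and the 800 nt limit were chosen with earlier results of these data known. Named genes were the members, the targeted genes, partners past the threshold in a Chtop contrast, the 8 most similar profiles (log2 CPM, prior count 2) and overlapping genes; MRTFA and MRTFB were singled out after their values were seen.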

Additional observations from a re-analysis of the deposited data

How the results depend on the processing

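The counts of calls and the 3′ UTR share were recomputed under each alternative. With DESeq2 the calls were 7 (Alyref against Control), 1 (Nxf1 against Control), 23 (Alyref against Nxf1), 74, 261 and 224 (Chtop against Alyref, Nxf1 and Control) and 34 regions. Library size alone gave 4, 1 and 161 (regions) for the Control contrasts, and no filter 28 (Alyref against Control) and 1688 regions. Leaving out shared tags gave 4 and 1 for Alyref and Nxf1 against Control, and each base counted once gave 1 for Alyref against Control. Exonic tags alone gave 50 (Alyref against Control), 291 (Alyref against Nxf1), 496 (Chtop against Nxf1) and 222 (Chtop against Control). The replicate block gave 78, 2 and 246 for Alyref against Control, Nxf1 against Control and Alyref against Nxf1. Among members and partners the block changed the calls of PPP1R15B (Alyref against Control), AURKB (Chtop against Alyref) and COG5 (Chtop against Control), and no other. Leaving out 1 library gave ranges of 0 to 106 (Alyref against Control), 0 to 2 (Nxf1 against Control), 4 to 325 (Alyref against Nxf1), 8 to 850, 149 to 1343 and 90 to 819 (Chtop against Alyref, Nxf1 and Control) and 0 to 336 regions. The cause of these shifts was not tested. The difference in the share of coding tags in long coding parts, 16.8 percentage points over other genes, was 20.5 with a limit of 500 nt and 14.7 with 1000 nt, alternatives chosen after seeing the data, and 15.9 to 17.6 without 1 library. The Chtop over Alyref difference of each member kept its sign in every setting in which it could be fitted. Depth limits most the Nxf1 and Control values, where 0 tags allow 9.78 and 33.1 RPM over a group.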
